A study of Mus musculus with 12 samples.

Results

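The effect of SR9009 was measured in mouse hepatocytes labelled as lacking both REV-ERB proteins, by comparing 3 libraries of KO cells given SR9009 with 3 libraries of KO cells given the solvent DMSO. These are 6 of the 12 libraries of an RNA sequencing series whose title speaks of effects of SR9009 that do not need REV-ERB. Of the 37991 genes in the deposited table, 11213 reached 1 FPKM (a level scaled to transcript length and to library depth) in at least 3 of the 12 libraries and were tested. The cells came from 10-week-old male mice whose REV-ERBα and REV-ERBβ genes both carried loxP sites. An AAV8 virus had been injected 2 weeks before, carrying either Cre and GFP (KO) or only GFP (control) under the TBG promoter, which is active in hepatocytes. No group received Cre without loxP sites, and every KO library, with DMSO or SR9009, carries both the virus and Cre. Cells were freed with collagenase, plated on collagen and kept for 8 h with DMSO or 10 µM SR9009; the labels spell the treatment S9009 and the treatment protocol spells it SR9009. Nothing in the labels tells whether the 3 libraries of a group came from separate mice, so a p-value here covers the spread among these libraries only, and that spread may be technical.

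The REV-ERB proteins (α and β) are heme-binding nuclear receptors that recruit a corepressor complex to silence genes. They form the arm of the circadian clock that represses Arntl (BMAL1), and in liver they also hold down genes of lipid and glucose metabolism. SR9009 is a synthetic compound sold as an agonist of these receptors, so cells without them are used to ask what the compound does by other routes. Hepatocytes answer foreign chemicals through the nuclear receptors CAR and PXR, which induce cytochrome P450 enzymes, conjugating enzymes and transporters, and answer oxidants through the factor NRF2. Protein folding load in the endoplasmic reticulum (ER) is met by chaperones under the factors ATF6 and XBP1, and ribosome production is driven by the factor MYC.

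The targeted genes were read first. Nr1d1 (ENSMUSG00000020889, mm9 chromosome 11, 98629246 to 98636647), the gene of REV-ERBα, stood at 17.4, 17.5 and 18.3 FPKM in the KO DMSO libraries and at 22.5, 21.5 and 22.2 FPKM in the KO SR9009 libraries, so the groups did not overlap. It rose by 0.30 on the log2 scale (SE 0.06, adjusted p = 0.00472 by limma with Benjamini-Hochberg adjustment over all 11213 tested genes). The opposite-strand neighbour Thra, a thyroid hormone receptor gene whose model overlaps Nr1d1 by 1075 bp, went from 3.13 ± 0.294 to 1.86 ± 0.168 FPKM (log2 -0.53, adjusted p = 0.0111), and reads of the shared stretch cannot be assigned to a strand here. Nr1d2, which encodes REV-ERBβ (ENSMUSG00000021775, mm9 chromosome 14, 19036568 to 19071641), stood at 16.3, 16.2 and 16.1 FPKM with DMSO and at 15.9, 18.2 and 18.9 FPKM with SR9009, and did not pass the test (log2 0.12, adjusted p = 0.537). These values cover whole gene models, and the deleted part was not measured separately, so they check neither the deletion nor the labels.

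The 6 KO libraries detected similar numbers of genes. Their relative depth, read from the steps of the lowest values, was 63.4% to 92.3% of that of the deepest library, and between 10755 and 10932 genes reached 1 FPKM. The depths are rough, since each rests on a ratio held by 56 to 67 of 2686 to 3063 low genes. KO DMSO library 1, the shallowest by this reading, had the most genes at 1 FPKM. Log2 values of pairs of KO libraries correlated across genes with r of 0.988 to 0.991 within a treatment and 0.981 to 0.986 between treatments. Hepatocyte markers dominated: the 12 markers summed to 38961 to 41575 FPKM with DMSO and to 37492 to 38652 FPKM with SR9009. The same sum was 40.6 to 53.8 and 51.1 to 54.8 FPKM for 12 Kupffer cell markers, and 12.6 to 19.0 and 12.4 to 13.3 FPKM for 9 sinusoidal endothelial markers. For 6 cholangiocyte markers it was 29.1 to 38.8 and 34.5 to 38.7 FPKM, for 9 stellate markers 2.02 to 2.85 and 2.08 to 2.37 FPKM, and under 1 FPKM for the lymphocyte and neutrophil markers. None of the tested markers of these other cell types passed the threshold. Among the 12 hepatocyte markers Cyp3a11 rose, Tat, Cps1, Hnf4a and Apoa1 fell, and the other 7 did not pass; the Apoa1 call ended without KO DMSO library 2 or 3 or KO SR9009 library 2 (adjusted p = 0.0695 to 0.0829). In bulk samples such as these, fewer cells of a type and less RNA per cell cannot be told apart.

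With SR9009, 1107 of the 11213 tested genes (9.87%) passed an adjusted p of 0.05 in KO cells (limma on log2(FPKM + 1), Benjamini-Hochberg over all tested genes), and "rose" and "fell" below refer to this threshold. Of these, 596 rose (5.32%) and 511 fell (4.56%), while 2563 genes (22.9%) had an unadjusted p under 0.05. The counts of all gene lists below stand beside these shares of 9.87%, 5.32% and 4.56%. The 3 SR9009 libraries lay entirely above or below the 3 DMSO libraries for 3627 genes (32.3%). The 12 leading named genes per direction were chosen from such genes, so their lack of overlap is a condition of the choice. Most changes were small: the median size of a passing change was 0.425 on the log2 scale, 32 genes rose and 26 fell by at least 1, and 5 rose and 0 fell by at least 2. The count came down to 603 without KO SR9009 library 1 (313 higher, 290 lower), to 672 without KO SR9009 library 2 (354 higher, 318 lower) and to 711 without KO DMSO library 3 (372 higher, 339 lower). Of the 189 passing genes that are named or belong to a list below, 119 kept their call when any 1 of the 12 libraries was left out. Named genes that passed are among these unless a loss is given. Errors after ± are SDs over n = 3 libraries, log2 changes are on the log2(FPKM + 1) scale, which understates the change of low genes, and folds are ratios of mean FPKM.

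Fam84a (ENSMUSG00000020607, mm9 chromosome 12, 14154405 to 14158844) had the largest rise. It stood at 0.415, 0.548 and 0.26 FPKM with DMSO and at 31.8, 30.1 and 27 FPKM with SR9009, so a gene at the edge of detection in the solvent was plainly present in all treated libraries (log2 4.44, SE 0.14, adjusted p = 2.58e-09). With a pseudocount of 5 in place of 1 its log2 change was 2.68. Cyp2b10 (ENSMUSG00000030483, mm9 chromosome 7, 26682639 to 26711643), a cytochrome P450 and the classic target of CAR, went from 101, 102 and 92 FPKM to 521, 534 and 539 FPKM, a 5.4-fold rise (log2 2.42, SE 0.07, adjusted p = 2.58e-09). The groups of both genes were far apart compared with the spread inside them. Insc, a spindle orientation adaptor (ENSMUSG00000048782, mm9 chromosome 7, 121887208 to 121993894), rose 5.02-fold, from 5.73, 5.17 and 5.39 to 31.3, 26.9 and 23.7 FPKM (adjusted p = 8.27e-06). The other 2 genes that rose by at least 2 on the log2 scale were gene models passed over by the naming rule: B430219N15Rik, from 2.75 ± 0.22 to 38.5 ± 7.47 FPKM, which lies wholly inside BC013529 on the opposite strand, and the pseudogene Cyp2c53-ps, from 2.7 ± 0.172 to 16.2 ± 0.785 FPKM, which overlaps Cyp2c29 on the same strand. Both are uncertain, because reads could be shared with those neighbours.

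Gadd45a, a growth arrest and DNA damage inducible gene (mm9 chromosome 6, 66985090 to 66987451), rose from 66.7, 63.8 and 54.9 FPKM to 206, 201 and 185 FPKM (log2 1.66, SE 0.08, adjusted p = 1.69e-07). Osgin1, an oxidative stress induced growth inhibitor, stood at 42.4, 34.7 and 29.4 FPKM with DMSO and at 66.5, 141 and 123 FPKM with SR9009 (log2 1.55, adjusted p = 0.00966). KO SR9009 library 1 had the smallest rise of the 3 and still lay above every DMSO library. Slc13a5, a plasma membrane citrate carrier, rose from 3.44 ± 1.02 to 11.7 ± 1.12 FPKM, and Procr, the endothelial protein C receptor gene, from 2.6 ± 0.843 to 9.17 ± 1.68 FPKM. Thbs1, which encodes the matrix protein thrombospondin 1, rose 2.96-fold to 13.3 ± 1.06 FPKM. Akr1b7, an aldo-keto reductase, rose 2.92-fold to 7.17 ± 0.479 FPKM, and Slc25a37, the mitochondrial iron importer mitoferrin 1, rose 2.4-fold to 23.3 ± 1.59 FPKM. Hmox1, the enzyme that breaks down heme, and G6pc, the catalytic subunit of glucose-6-phosphatase, completed the 12 largest rises among named genes and are described with their pathways.

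Hpgd (ENSMUSG00000031613, mm9 chromosome 8, 58773349 to 58799843), the enzyme that inactivates prostaglandins, fell from 49.5, 60.9 and 56.3 FPKM to 17, 17.8 and 19.9 FPKM (log2 -1.56, SE 0.08, adjusted p = 6.43e-07). Lpin1, a phosphatidate phosphatase and transcriptional coactivator of fat metabolism, stood at 85.6, 51 and 51.9 FPKM with DMSO and at 12.2, 27.7 and 21.2 FPKM with SR9009 (log2 -1.61, adjusted p = 0.0269). The Lpin1 groups did not overlap but spread widely, and the call ended without KO DMSO library 1 (adjusted p = 0.0862), KO SR9009 library 1 (0.103) or KO SR9009 library 3 (0.0608). Ppara, the nuclear receptor that drives fatty acid oxidation (mm9 chromosome 15, 85565413 to 85633249), fell 2.58-fold, from 25.8, 29.1 and 28.2 to 8.01, 11.7 and 12.5 FPKM (adjusted p = 0.0109), and missed the threshold without KO SR9009 library 1 (0.0536).

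Erbb3, a receptor of the EGF receptor family, went from 30.3, 32.3 and 29.2 FPKM to 10.6, 13 and 15.4 FPKM (log2 -1.19, adjusted p = 0.000107). Rgs16, a regulator of G protein signalling, fell 2.22-fold, from 139.6 ± 8.36 to 62.7 ± 6.41 FPKM. Cab39l, a scaffold of the LKB1 kinase complex, fell 2.25-fold to 52.2 ± 6.44 FPKM. Pid1, an adaptor of the LRP1 receptor, fell 2.51-fold to 7 ± 0.396 FPKM. The scavenger receptor gene Scara5 fell 2.39-fold to 7.84 ± 0.814 FPKM, the cationic amino acid transporter gene Slc7a2 fell 2.27-fold to 9.23 ± 1.22 FPKM, and Setdb2, of the histone methyltransferase family, fell 2.23-fold to 15.5 ± 3.68 FPKM. Avpr1a, the vasopressin receptor of hepatocytes, which was picked after its values were seen, fell from 51.2 ± 1.07 to 24.3 ± 2.04 FPKM. In each of these genes every SR9009 library lay below every DMSO library, which the naming rule required of all but Avpr1a. Of all tested genes 15.4% had groups separated in this direction.

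**Figure D1:**
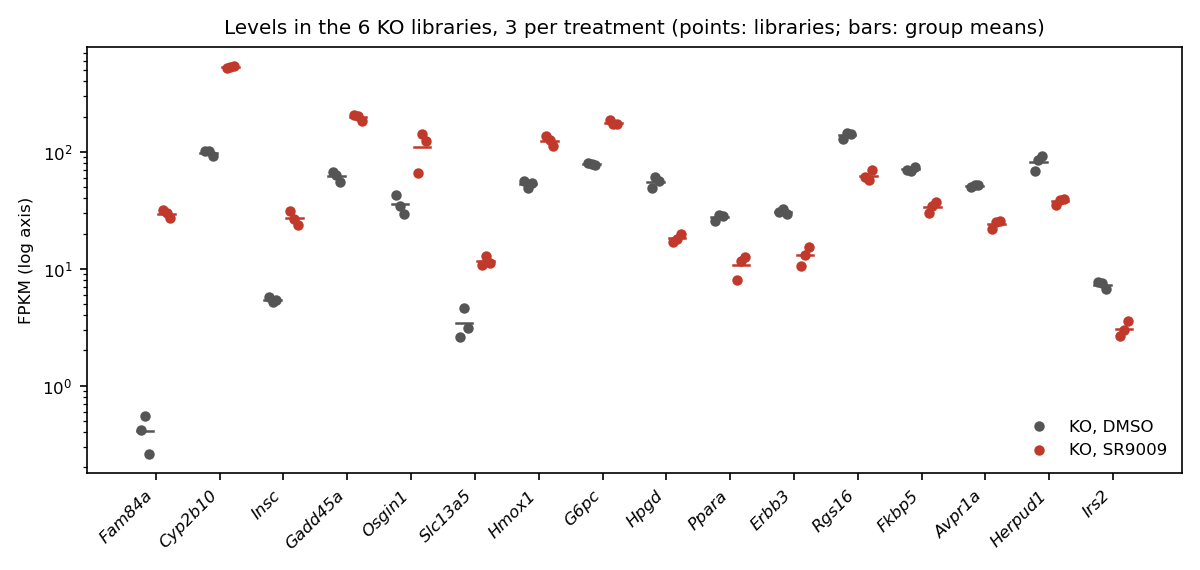
Levels of 16 genes in the KO hepatocyte libraries, with FPKM on a log axis, a point for each library and a short bar for each group mean (3 DMSO and 3 SR9009 libraries per gene). The 8 genes on the left rose and the 8 on the right fell with SR9009, and in none of the 16 do the treatments overlap. Separate groups were a condition of the naming rule for all but Fkbp5, Avpr1a and Irs2.

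Calls among genes of the xenobiotic response under CAR and PXR were all rises. Of 27 tested members 13 rose and 0 fell, with a median change of 0.32 on the log2 scale beside 0.004 over all tested genes, and 12 of the 13 held with any 1 library left out. After Cyp2b10, the members with the smallest p were Por, Gstm3, Cyp2c29, Abcb1a and Gsta1. Por, the reductase that feeds electrons to every microsomal P450, rose from 285, 282 and 288 FPKM to 407, 406 and 431 FPKM (log2 0.54, adjusted p = 3.01e-05). Cyp2c29, a P450 of the CYP2C family, rose from 839.9 ± 39.6 to 1318 ± 42.8 FPKM, and Abcb1a, the drug efflux pump P-glycoprotein, from 5.55, 5.16 and 5.9 to 11.1, 11 and 10.3 FPKM. The glutathione transferases Gstm3 and Gsta1 rose by 0.77 and 0.88. Cyp3a11, the classic PXR target, rose from 1435 ± 109.8 to 1784 ± 22.6 FPKM (log2 0.32, adjusted p = 0.00487; log2 0.19 with quantile normalization, still past the threshold). The receptor genes themselves did not pass: CAR (Nr1i3) stood at 6.49 FPKM with DMSO and 6.13 FPKM with SR9009 (adjusted p = 0.757), and PXR (Nr1i2) at 18 and 20.5 FPKM (adjusted p = 0.272). Members of the Cyp2b, Cyp2c and Gstm families have near-identical copies between which reads could be split, so their single values are uncertain. In control cells 14 of the same 27 genes rose and 1 fell.

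**Figure D2:**
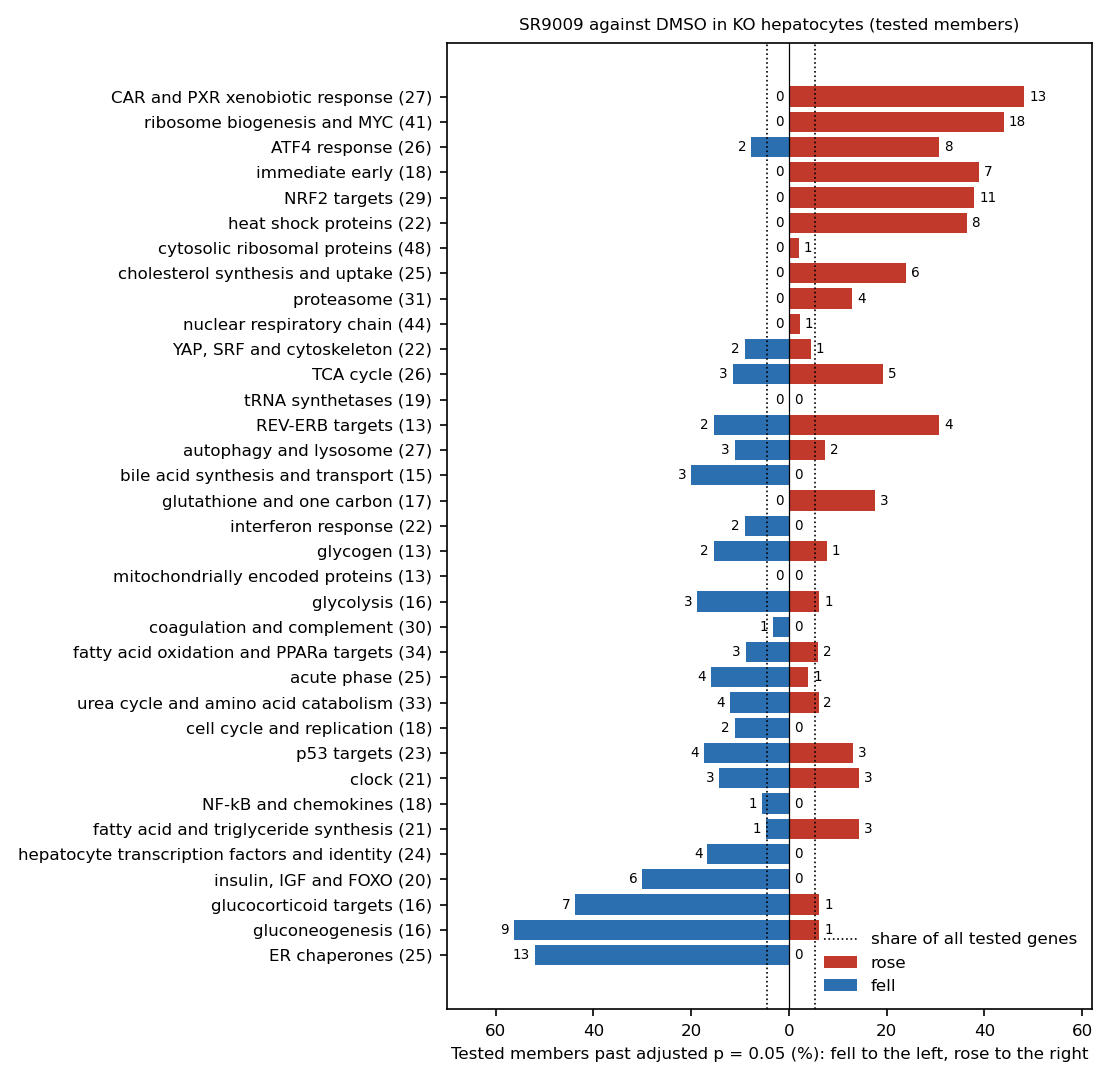
Share of tested members of 35 gene lists that rose (right, red) or fell (left, blue) with SR9009 in KO hepatocytes, in percent, with the number of genes at each bar end and the number tested in parentheses; dotted lines mark the shares over all tested genes, 5.32% and 4.56%. Lists run from the highest to the lowest median change, from CAR and PXR (13 rose, 0 fell) to ER chaperones (0 rose, 13 fell).

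Targets of NRF2, the factor that induces antioxidant enzymes, moved the same way as the xenobiotic genes. Of 29 tested members 11 rose and 0 fell (median log2 0.20), 7 rose without KO SR9009 library 1, and 7 held in every fit that left out a library. Gstm3 and Gsta1 belong to both lists. Hmox1 rose from 56.6, 48.9 and 54.2 FPKM to 136, 127 and 112 FPKM (log2 1.21, SE 0.11, adjusted p = 3.01e-05), with the lowest treated library far above the highest untreated one. Txnrd1, cytosolic thioredoxin reductase, rose from 226, 209 and 208 to 324, 311 and 285 FPKM (log2 0.51, adjusted p = 0.000365). Nqo1, a quinone reductase, rose from 18.6 ± 0.336 to 24.7 ± 1.47 FPKM, and Slc7a11, the cystine importer for glutathione synthesis, from 9.11 ± 1.56 to 15.8 ± 1.13 FPKM. Nfe2l2, which encodes NRF2, stood at 60.4 and 64.1 FPKM (adjusted p = 0.448). In the glutathione and one carbon list 3 of 17 rose and 0 fell, among them Gsr, glutathione reductase (log2 0.35), and Mat2a, which makes S-adenosylmethionine (log2 0.49). In control cells 6 of the 29 NRF2 targets rose and 0 fell.

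The antioxidant response element TGACNNNGC was searched on both strands of RefSeq promoters (GRCm38.p6, 250 bases before to 50 after each start). It was found for 10 of the 26 NRF2 list genes with a promoter in the table, 4 of 10 that rose and 6 of 16 that did not pass, beside 14.0% of all 27025 genes with a promoter there. The 250 bases before 1 of the 3 Txnrd1 starts in the table (GRCm38.p6 chr10:82858956-82859205, plus strand) are printed because this gene rose and holds a match 92 bases before that start, given in capitals and read on the reverse strand.
Txnrd1: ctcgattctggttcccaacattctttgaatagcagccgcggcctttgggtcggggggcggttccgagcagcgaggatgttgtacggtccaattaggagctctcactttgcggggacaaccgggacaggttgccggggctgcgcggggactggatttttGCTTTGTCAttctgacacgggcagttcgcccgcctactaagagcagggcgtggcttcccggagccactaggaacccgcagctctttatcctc

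Of the heat shock proteins, a list of mostly cytosolic chaperones that also holds mitochondrial ones, 8 of 22 tested members rose and 0 fell (median 0.15), 5 rose without KO SR9009 library 1, and 5 held under every left-out library. Hspa8, the constitutive HSP70, went from 468 ± 10.7 to 586 ± 26.3 FPKM (log2 0.32, adjusted p = 0.000903). Hspa4, an HSP110 nucleotide exchange factor, rose by 0.36, Hsp90aa1, the inducible cytosolic HSP90, by 0.40, and the small heat shock protein genes Hspb1 and Hspb8 by 0.31 and 0.65. In control cells 2 of the 22 rose and 0 fell.

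Chaperones of the ER went the other way. Of 25 tested members of the ER chaperone list 0 rose and 13 fell, with a median of -0.35, and 9 of the 13 held with any 1 library left out. Herpud1, an ER membrane protein of the degradation pathway for misfolded proteins (ENSMUSG00000031770, mm9 chromosome 8, 96910338 to 96919277), fell from 68.5, 84.9 and 92.8 FPKM to 35, 38.7 and 39.8 FPKM (log2 -1.09, SE 0.12, adjusted p = 0.000214). Derl3, another factor of that pathway, fell from 8.34, 8.52 and 10.4 to 3.43, 3.89 and 4.66 FPKM (log2 -1.01, adjusted p = 0.000725). Every treated library lay below every untreated one for both genes. Hsp90b1, the ER member of the HSP90 family (GRP94), fell from 289, 279.8 and 313 FPKM to 207, 219 and 226 FPKM (log2 -0.43, adjusted p = 0.000977). Pdia6, a protein disulfide isomerase, fell by 0.39, Dnajb11, a cochaperone of BiP, by 0.35, and Sdf2l1, which assists the same chaperone, by 0.61. The central chaperone BiP (Hspa5) went from 740.5 ± 46.4 to 634 ± 31.2 FPKM and did not pass (log2 -0.22, adjusted p = 0.292), and neither did Xbp1 (log2 -0.17, adjusted p = 0.312). In control cells 14 of the same 25 fell and 0 rose.

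The ER stress response element ERSE, to which ATF6 and its partner NF-Y bind, joins CCAAT and CCACG with a gap of 9 bases of any kind between them. It was found on either strand in the promoters of 9 of the 21 ER genes with an entry, 6 of 12 that fell and 3 of 9 that did not pass, beside 0.137% of all 27025 genes with promoters of the same length. The bases before the start of 3 genes that fell are printed to show where the element lies, with the element in capitals (RefSeq, GRCm38.p6): Hsp90b1, chr10:86705445-86705694, minus strand, elements 212 and 107 bases before the start, the nearer one read on the reverse strand; Pdia6, chr12:17266339-17266588, plus strand, 98 bases before; Derl3, chr10:75893148-75893397, plus strand, 156 bases before and read on the reverse strand. A match of letters is a description of the promoter, not a measurement of binding.
Hsp90b1: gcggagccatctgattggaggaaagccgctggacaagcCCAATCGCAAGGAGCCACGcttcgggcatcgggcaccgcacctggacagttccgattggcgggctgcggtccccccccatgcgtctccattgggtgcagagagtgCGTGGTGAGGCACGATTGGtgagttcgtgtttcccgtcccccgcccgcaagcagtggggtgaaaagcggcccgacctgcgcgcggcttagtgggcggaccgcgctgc
Pdia6: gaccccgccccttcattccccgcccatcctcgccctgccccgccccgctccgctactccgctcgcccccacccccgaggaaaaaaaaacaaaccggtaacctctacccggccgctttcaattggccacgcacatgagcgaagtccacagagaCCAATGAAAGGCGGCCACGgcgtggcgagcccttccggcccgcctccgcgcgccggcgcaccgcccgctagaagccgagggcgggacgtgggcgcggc
Derl3: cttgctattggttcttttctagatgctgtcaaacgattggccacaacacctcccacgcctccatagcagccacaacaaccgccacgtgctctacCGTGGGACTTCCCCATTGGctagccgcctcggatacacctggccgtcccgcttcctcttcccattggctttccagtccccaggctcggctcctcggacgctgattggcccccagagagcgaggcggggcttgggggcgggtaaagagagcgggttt

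Many genes that build ribosomes rose, each by a small amount. Of 41 tested members of the ribosome biogenesis and MYC list 18 rose and 0 fell, with a median of 0.25, and 13 of the 18 held with any 1 library left out. Ncl, nucleolin, rose from 70.6, 70 and 69.8 FPKM to 91, 93.9 and 87.5 FPKM (log2 0.37, SE 0.04, adjusted p = 0.000326). Npm1, nucleophosmin, rose from 142 ± 1.59 to 188 ± 8.36 FPKM, Nop58, a core protein of box C/D small nucleolar particles, by 0.37, Dkc1, the pseudouridine synthase dyskerin, by 0.45, and the nucleolar helicase Ddx21 by 0.35. Myc itself went from 79.4, 78.5 and 77.1 FPKM to 107, 120.1 and 99.9 FPKM (log2 0.47, adjusted p = 0.00193), with no overlap between the treatments. Of the proteins of the cytosolic ribosome 1 of 48 rose (2.08%, beside 5.32% of all tested genes) and 0 fell, with a median of 0.14. This count of rises ran from 0 to 7 as single libraries were left out. In control cells 16 of the 41 biogenesis genes rose and 0 fell.

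The MYC binding E-box CACGTG, a palindrome, occurred in the promoters of 9 of the 35 biogenesis genes with an entry, 5 of 16 that rose and 4 of 19 that did not pass, beside 8.09% of all genes with a promoter. Rrn3, an initiation factor of RNA polymerase I (log2 0.38), and Nop2, a ribosomal RNA methyltransferase (log2 0.29), are shown as genes that rose and hold the element, given in capitals. The stretches are Rrn3, chr16:13780449-13780698, plus strand, elements 215 and 48 bases before the start, and Nop2, chr6:125131633-125131882, plus strand, 60 bases before (RefSeq, GRCm38.p6).
Rrn3: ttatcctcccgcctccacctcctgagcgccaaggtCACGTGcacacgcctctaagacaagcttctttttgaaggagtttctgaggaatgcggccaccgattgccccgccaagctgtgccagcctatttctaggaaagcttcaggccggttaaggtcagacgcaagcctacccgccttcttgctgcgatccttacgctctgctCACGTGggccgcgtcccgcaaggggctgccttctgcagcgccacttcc
Nop2: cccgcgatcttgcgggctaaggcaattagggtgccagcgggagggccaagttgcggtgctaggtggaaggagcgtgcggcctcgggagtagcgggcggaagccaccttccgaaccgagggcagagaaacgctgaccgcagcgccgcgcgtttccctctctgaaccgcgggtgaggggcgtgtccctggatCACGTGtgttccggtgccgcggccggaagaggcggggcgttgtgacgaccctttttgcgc

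**Figure D3:**
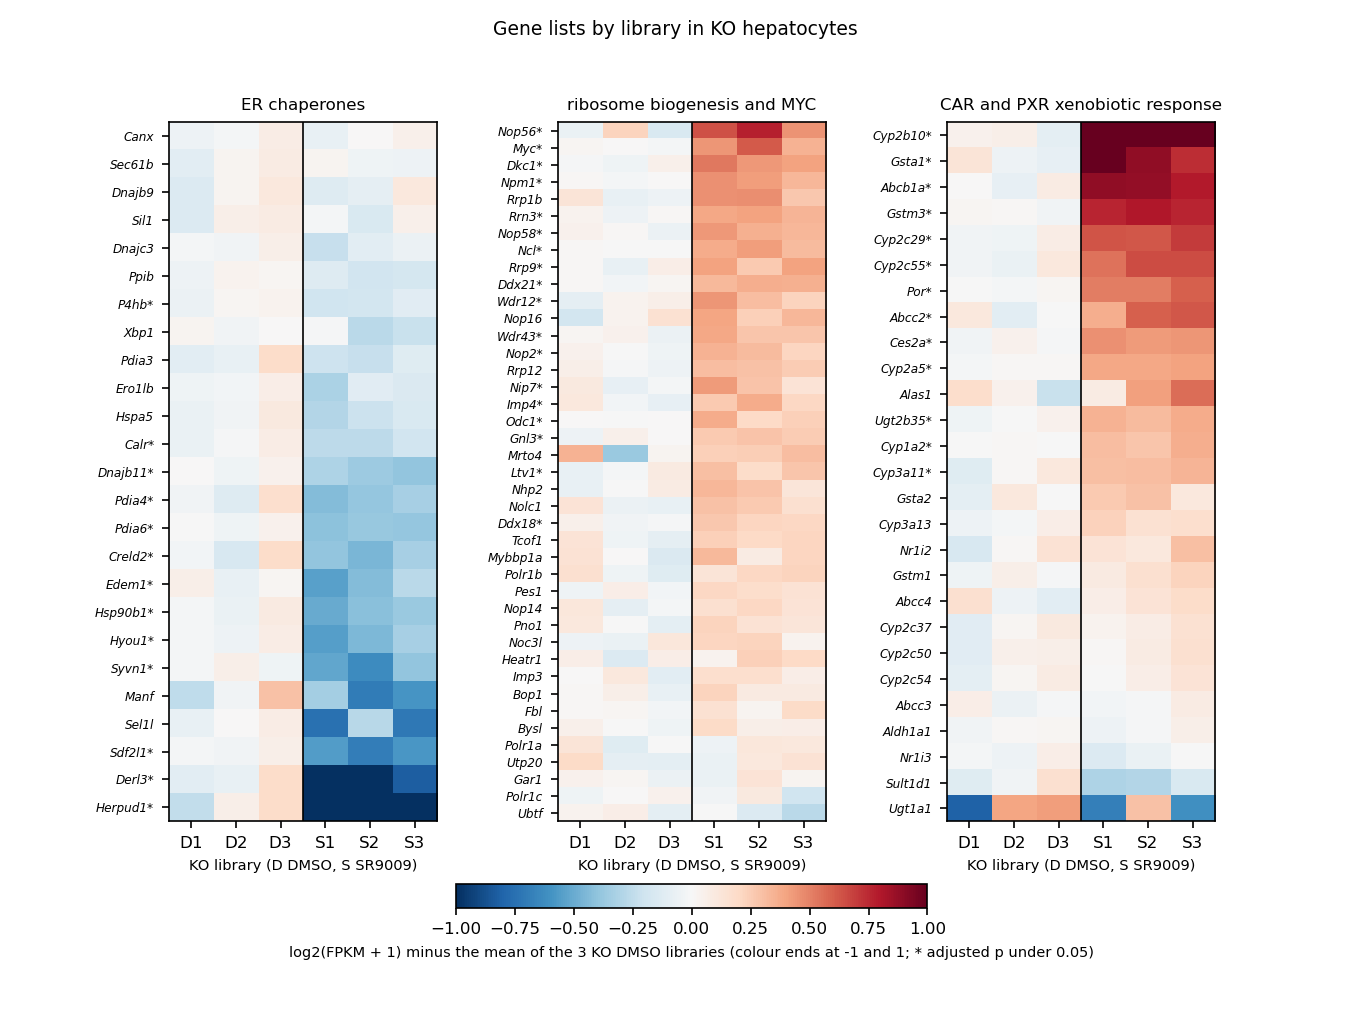
Genes of 3 lists (rows) in the 6 KO libraries (columns; D1 to D3 DMSO, S1 to S3 SR9009), coloured by log2(FPKM + 1) minus the mean of the DMSO libraries, with the colour ending at -1 and 1 and a star on genes past an adjusted p of 0.05. The columns S1 to S3 are blue for most ER chaperones (13 of 25 fell) and red for most ribosome biogenesis genes (18 of 41 rose) and xenobiotic genes (13 of 27 rose).

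The response under ATF4, the factor that answers amino acid shortage and other stress, was mixed. Of 26 tested members 8 rose and 2 fell (median 0.21). The count of rises was 5 without KO DMSO library 3, KO SR9009 library 1 or KO SR9009 library 2, and that of falls was 1 without any 1 of the KO libraries other than KO SR9009 library 1. Trib3, a pseudokinase, rose from 37.9 ± 1.41 to 54.4 ± 5.43 FPKM (log2 0.51, adjusted p = 0.000935), the factor Atf3 by 0.34, Mthfd2, a mitochondrial folate enzyme, by 0.42, and Slc7a5, a carrier of large neutral amino acids, by 0.53. Ddit4, an inhibitor of mTORC1, fell from 16.6, 14.7 and 16.6 FPKM to 10.3, 9.48 and 8.44 FPKM (log2 -0.71, adjusted p = 0.000156). The cytosolic tRNA synthetases, many of which ATF4 also induces, gave 0 of 19 past the threshold and a median of 0.04. The letters TGATGNAA of the amino acid response element were found for 9 of 24 ATF4 list genes with a promoter entry, beside 4.51% of all genes with one. They were found for 3 of 6 that rose, 0 of 2 that fell and 5 of 14 that did not pass. The 24 also include untested genes.

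Genes of glucose output fell in number, while G6pc rose. In the gluconeogenesis list 9 of 16 fell and 1 rose (median -0.27, beside 4.56% of all tested genes that fell), and 6 of the 9 falls held with any 1 library left out. G6pc (ENSMUSG00000078650, mm9 chromosome 11, 101228875 to 101239217) rose from 80.1, 79.3 and 77.2 FPKM to 186, 172 and 172 FPKM (log2 1.15, SE 0.09, adjusted p = 1.68e-05). Slc37a4, the carrier that brings glucose-6-phosphate to that enzyme, fell from 112, 107 and 116 FPKM to 67.3, 67.8 and 76.7 FPKM (log2 -0.66, adjusted p = 0.000384). The 2 parts of the glucose-6-phosphatase system therefore moved in opposite directions, each with groups that did not overlap. Tat, tyrosine aminotransferase, fell from 307, 304 and 371 to 160.4, 170.2 and 194 FPKM, Gpd1, cytosolic glycerol-3-phosphate dehydrogenase, from 215 ± 3.16 to 134 ± 5.16 FPKM, and Pcx, pyruvate carboxylase, from 179 ± 5.72 to 135 ± 2.99 FPKM. Pck1, the cytosolic PEPCK, and Fbp1, fructose-1,6-bisphosphatase, did not pass (log2 -0.03 and -0.07, adjusted p = 0.901 and 0.508). In control cells 5 of the 16 fell and 1 rose.

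Sugar uptake and glycogen genes were called in both directions, 4 of 16 glycolysis genes (25.0%) and 3 of 13 glycogen genes (23.1%), beside 9.87% of all tested genes. Slc2a1, the glucose transporter GLUT1, which is low in normal liver, rose from 17.9, 13.8 and 16.5 FPKM to 29.8, 28.9 and 25.7 FPKM (log2 0.77, adjusted p = 0.000639). Slc2a2, the main hepatocyte transporter GLUT2, fell by 0.36 (adjusted p = 0.0364), a call that ended without KO DMSO library 2, any 1 of the KO SR9009 libraries or control DMSO library 2 (adjusted p = 0.0514 to 0.138). Ppp1r3c and Ppp1r3b, subunits that target a phosphatase to glycogen, went from 6.37 ± 1.09 to 2.54 ± 0.343 FPKM and from 7.25 ± 1.14 to 4.08 ± 0.651 FPKM. Of 16 glycolysis genes 1 rose and 3 fell, and 1 fell without KO DMSO library 2, any 1 of the KO SR9009 libraries or control DMSO library 2. Of 13 glycogen genes 2 fell and 1 rose, and 0 rose without KO DMSO library 1, KO DMSO library 2, KO SR9009 library 1 or KO SR9009 library 3.

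Some insulin and glucocorticoid target genes fell as well. In the insulin, IGF and FOXO list 6 of 20 fell and 0 rose (median -0.18), with 2 falls left without KO SR9009 library 1 and 3 without KO SR9009 library 2. Irs2, the insulin receptor substrate of the fasted liver, went from 7.71, 7.54 and 6.68 FPKM to 2.65, 2.99 and 3.57 FPKM (log2 -1.03, SE 0.17, adjusted p = 0.00256), and Trib1, a pseudokinase that lowers C/EBPα protein, from 20.7 ± 1.45 to 13.4 ± 0.958 FPKM. Of 16 glucocorticoid targets 7 fell and 1 rose (median -0.19), with 4 falls left without KO DMSO library 1 or KO SR9009 library 1 and 0 rises without KO DMSO library 3 or KO SR9009 library 2. Fkbp5, a cochaperone and a standard readout of the glucocorticoid receptor, fell from 69.9, 68.2 and 74.6 FPKM to 30.2, 34.5 and 37.5 FPKM (log2 -1.04, SE 0.08, adjusted p = 1.21e-05). Tsc22d3 (GILZ) fell by 0.74 and Zbtb16 (PLZF) by 0.69, while the receptor gene Nr3c1 did not pass (log2 -0.22, adjusted p = 0.442). In control cells 1 of the 20 insulin genes fell and 4 of the 16 glucocorticoid targets fell and 1 rose. The difference between the genotypes passed the test for 0 members of these lists.

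**Figure D4:**
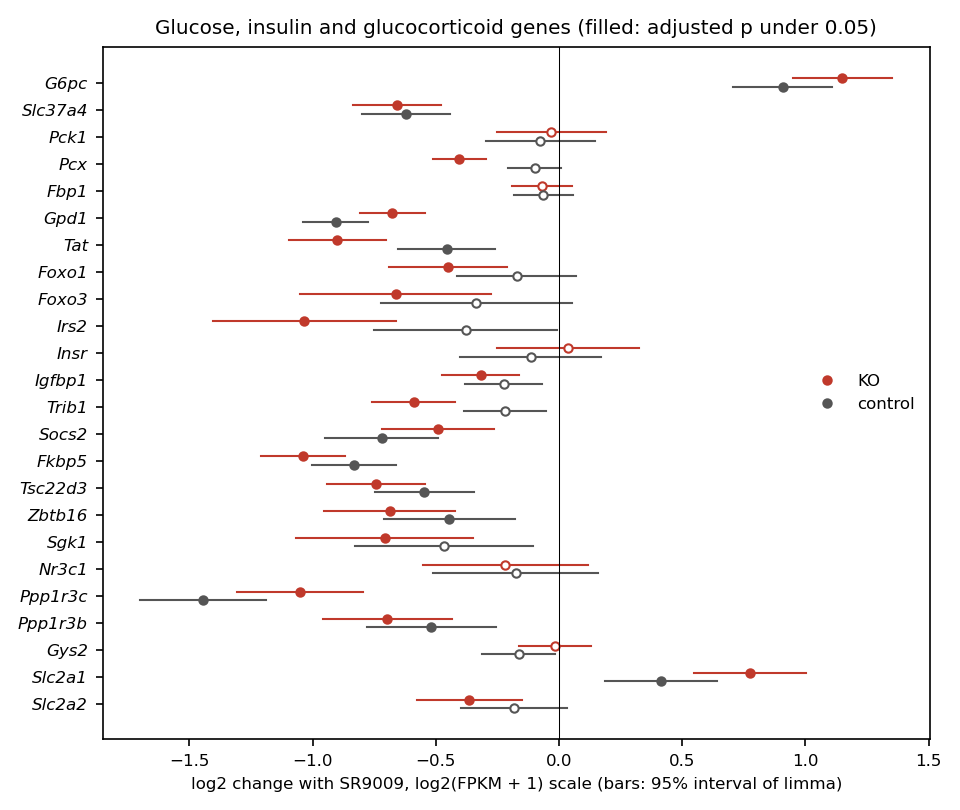
Change with SR9009 of 24 glucose, insulin and glucocorticoid genes on the log2(FPKM + 1) scale in KO (red) and control (grey) hepatocytes, 3 libraries per group, with 95% intervals from limma and filled points for an adjusted p under 0.05. In KO cells G6pc and Slc2a1 lie to the right of 0, Pck1, Fbp1, Insr, Nr3c1 and Gys2 have intervals across 0, and the rest lie to the left.

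Calls among sterol genes in KO cells were all rises, and those among the wider lipid genes went both ways. Of 25 genes of cholesterol synthesis and uptake, which the factor SREBP2 controls, 6 rose and 0 fell (median 0.14), and 4 held with any 1 library left out. Insig1, which retains the SREBP complex in the ER (mm9 chromosome 5, 28397952 to 28405201), rose from 24.4, 24.8 and 21.1 FPKM to 40.2, 38 and 37.1 FPKM (log2 0.70, SE 0.07, adjusted p = 0.000119), and Idi1, an isoprenoid isomerase, from 24.8 ± 0.577 to 32.4 ± 0.368 FPKM. Among 21 genes of fatty acid and triglyceride synthesis 3 rose (1 without KO DMSO library 3, KO SR9009 library 1 or KO SR9009 library 3) and 1, Lpin1, fell, with Scd1, the stearoyl-CoA desaturase, at 557 ± 3.66 and 719 ± 15.4 FPKM (log2 0.37, adjusted p = 0.00844). The list that joins fatty acid oxidation with targets of PPARα gave 2 rises and 3 falls among 34 genes, with 1 rise left without any 1 of the KO DMSO libraries, KO SR9009 library 1 or KO SR9009 library 2. The falls were Ppara itself, the lipid droplet protein gene Cidec (log2 -0.41) and the lipase inhibitor gene Angptl4 (log2 -0.39). The median over this list was -0.05, and 14.7% of it was called. The share called was 19.0% for fatty acid and triglyceride synthesis and 24.0% for cholesterol genes, beside 9.87% of all tested genes. The cholesterol list gave 3 rises and 2 falls among the 25 genes in control cells, with a median of -0.018.

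Genes of growth control split. Among 23 p53 targets 3 rose and 4 fell (median -0.09), so 30.4% were called beside 9.87% of all tested genes. Gadd45a and Plk2, a polo-like kinase (log2 0.58), rose, as did 9630033F20Rik, the older symbol of Tigar (log2 0.47). Sesn1, sestrin 1, fell from 62.7 ± 3.34 to 33.5 ± 2.8 FPKM (log2 -0.88, adjusted p = 1.68e-05), and Phlda3, an AKT inhibitor, from 12.6 ± 0.929 to 6.3 ± 0.793 FPKM. The 2 textbook targets Cdkn1a (p21) and Mdm2 did not pass, with log2 changes of -0.14 and 0.04. Of 37 cell cycle and replication genes only 18 were high enough to be tested. Of those 2 fell, Rrm2, a ribonucleotide reductase subunit, and Ccnd3, cyclin D3 (log2 -0.47), and 0 rose. The share called, 11.1%, was near that of all tested genes. The Rrm2 call (log2 -0.34) ended without KO DMSO library 2 or 3 or KO SR9009 library 1 or 2. Immediate early genes gave 7 rises and 0 falls among 18 tested (median 0.21), with 4 that held under every left-out library: Myc, Atf3, Fosl1, from 24.5 ± 3.35 to 43.3 ± 5.42 FPKM, and Fosl2, from 8.11 ± 0.412 to 12.8 ± 1.07 FPKM, the last 2 being members of the AP-1 family. In the YAP, SRF and cytoskeleton list 1 of 22 rose and 2 fell (13.6% called, beside 9.87% of all tested genes). Only the fall of Ctgf, a matrix-linked growth factor gene (log2 -0.94), held under every left-out library.

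Some identity genes of the hepatocyte fell. Of 24 hepatocyte transcription factors and identity genes 4 fell and 0 rose (median -0.15), with 2 falls left without KO DMSO library 2, KO DMSO library 3 or KO SR9009 library 2. Hnf4a, the master nuclear receptor of the cell type (ENSMUSG00000017950, mm9 chromosome 2, 163332544 to 163398646), went from 216, 230.2 and 232 FPKM to 135, 142 and 173 FPKM (log2 -0.60, SE 0.09, adjusted p = 0.00173), and Foxa3, a forkhead factor, from 16.5 ± 1.41 to 10.6 ± 0.408 FPKM. Cps1, the entry enzyme of the urea cycle, fell from 882, 864 and 889.8 FPKM to 453, 521 and 594 FPKM (log2 -0.76, adjusted p = 0.00131). It belonged to the urea cycle and amino acid catabolism list, in which 4 of 33 fell and 2 rose (0 without KO DMSO library 1, KO DMSO library 3 or KO SR9009 library 1) and in which Tdo2, tryptophan dioxygenase (log2 -0.54), and Gpt2, alanine aminotransferase 2 (log2 -0.45), fell too. Acute phase genes gave 4 falls and 1 rise among 25, led by Lcn2, lipocalin 2 (log2 -0.84), and 0 rises without KO DMSO library 2 or KO SR9009 library 1. Bile acid genes gave 3 falls among 15, including Abcb4, the canalicular phospholipid pump (log2 -0.33), and Amacr, a racemase of side chain shortening (log2 -0.40).

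Mitochondrial and protein degradation lists differed in their counts. Among 13 proteins encoded in mitochondria 0 passed (median -0.03), and the mitochondrial share of summed FPKM was 7.23% to 7.34% with DMSO and 6.62% to 7.54% with SR9009. Of 44 nuclear genes of the respiratory chain 1 rose (2.27%, beside 5.32% of all tested genes), and 0 did without KO SR9009 library 1. In the TCA cycle list, where 8 of 26 were called (30.8% beside 9.87% of all tested genes), 5 rose (2 without KO DMSO library 1, KO DMSO library 3 or KO SR9009 library 2) and 3 fell (0 without KO DMSO library 3, KO SR9009 library 1 or KO SR9009 library 2), with Idh3a, a subunit of isocitrate dehydrogenase, at 10.4 ± 1.14 and 15.6 ± 0.967 FPKM (log2 0.55, adjusted p = 0.00274). Proteasome subunits gave 4 rises among 31 (12.9%), and 0 without KO DMSO library 1, KO DMSO library 3, KO SR9009 library 1 or KO SR9009 library 2. In the autophagy and lysosome list 3 of 27 fell and 2 rose (18.5% called), and 1 of each held under every left-out library: Wipi1, an autophagosome protein, fell by 0.81 and Sqstm1, the cargo receptor p62, rose by 0.36. Interferon genes gave 2 falls among 22 (9.09%) and NF-kB and chemokine genes 1 among 18 (5.56%), beside 4.56% of all tested genes that fell. Neither list kept a call under every left-out library. Of 30 coagulation and complement genes 1 fell (3.33%), F11, coagulation factor XI (log2 -0.43). Counts of the mitochondrially encoded, respiratory chain, NF-kB and chemokine, and coagulation and complement lists were near the share of all tested genes or below it. Such counts do not set those lists apart from other genes.

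Clock genes were read member by member, since the KO cells are labelled as lacking the repressors through which SR9009 is sold to act. Of 21 tested members 3 rose and 3 fell (median -0.09), so 28.6% were called beside 9.87% of all tested genes. Of the rises and of the falls, 2 each held under every left-out library. The rises were Nr1d1, described above, Bhlhe40 (DEC1), a repressor of clock output, from 94.9, 87.2 and 91.9 to 115, 120.4 and 109.5 FPKM (log2 0.33, adjusted p = 0.00703), and Nfil3, a D-box repressor (log2 0.25). The falls included Cry2, a cryptochrome, from 28.3, 30.5 and 26.1 to 20.1, 20.9 and 21.9 FPKM (log2 -0.41, adjusted p = 0.00394), and Per1, a period gene (log2 -0.36). The remaining fall, not named here, held under every left-out library. The calls of Nfil3 and Per1 each ended under 5 of the left-out libraries, with adjusted p of 0.0514 to 0.0919 and 0.0661 to 0.109. The activator genes did not pass: Arntl (BMAL1), at 0.214 FPKM in control DMSO cells, went in KO cells from 6.3, 6.33 and 6.85 to 5.86, 4.99 and 5.37 FPKM (log2 -0.23, adjusted p = 0.252), Npas2 from 6.8, 5.76 and 7.47 to 6.92, 6.23 and 7.3 FPKM, and Clock from 4.59 ± 0.106 to 4.02 ± 0.774 FPKM, with overlapping groups for Npas2 and Clock. Among the outputs Dbp stood at 4.42 and 3.21 FPKM and Per2 at 5.42 and 4.09 FPKM, and neither passed (adjusted p = 0.172 and 0.077). Control cells gave 1 rise and 4 falls among the 21 clock genes.

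REV-ERB target genes, a list that shares Arntl, Clock, Npas2, Cry1 and Nfil3 with the clock list, were called in both directions. Of 13 tested members of 16, 4 rose and 2 fell (median 0.03), so 46.2% were called beside 9.87% of all tested genes. Of the rises and of the falls, 1 each held under every left-out library. The rise of G6pc and the fall of Cidec held, while the calls of Plin2 (adjusted p up to 0.0629), Insig2 (up to 0.157), Nfil3 (up to 0.0919) and Lpin1 (up to 0.103) did not. The count of rises went down to 1 without KO DMSO library 2 or KO SR9009 library 1, and to 2 without KO SR9009 library 2 or 3. Control cells gave 2 rises and 0 falls among the same 13 genes, 15.4% called beside 8.24% of all tested genes. The nuclear receptor core motif AGGTCA was present on either strand in the promoters of 7 of 15 listed genes, beside 18.1% of all genes with a promoter. It was present for 3 of 4 that rose, 1 of 2 that fell and 3 of 7 that did not pass. The 15 also include untested genes.

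The same contrast in control cells, which share no library with the KO contrast, was set beside these values. Both contrasts use the same estimate of the spread of each gene, taken from all 12 libraries, so their calls are not independent. In control cells 924 genes passed (8.24%), of which 414 rose (3.69%) and 510 fell (4.55%). The control count was 532, 545 and 530 without control DMSO library 1, 2 and 3. With each contrast fitted on its own groups alone, 376 genes passed in control cells and 1206 in KO cells. Both contrasts called 552 genes, which is 49.9% of the KO calls and 59.7% of the control calls, and all 552 had the same direction, 267 higher and 285 lower. Of the 1107 genes called in KO cells, 1053 (95.1%) had the same sign in control cells, beside 67.1% of all tested genes. Across all 11213 genes the changes correlated with r = 0.570, with genes as points that are not independent replicates. The median size of change of the genes called in KO cells was 0.425 there and 0.305 in control cells; these genes were chosen on the KO values.

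The difference between the genotypes was tested gene by gene as an interaction, KO change minus control change. It passed for 3 genes (0.0268%), 2 with a higher change in KO cells (0.0178%) and 1 with a lower one (0.00892%), while 786 (7.01%) had an unadjusted p under 0.05. Gstm3 rose 1.71-fold in KO cells, from 752 ± 14.9 to 1286 ± 19 FPKM. Its rise was 3.06-fold in control cells, from 104 ± 13 to 317 ± 15.8 FPKM (difference -0.83 on the log2 scale, adjusted p = 0.0307). In FPKM the rise was larger in KO cells, which started from a higher level. Reads could be split between near-identical Gstm copies, so these values are uncertain. Hmox2, the constitutive heme oxygenase, stood at 34.1 ± 1.1 and 36.3 ± 1.65 FPKM in KO cells and at 36.8 ± 3.02 and 21.1 ± 0.399 FPKM in control cells (difference 0.86, adjusted p = 0.00854); its model overlaps 5730403B10Rik on the opposite strand over 16395 bp. Vma21, an assembly factor of the vacuolar proton pump, stood at 7.2 ± 0.512 and 8.04 ± 0.408 FPKM in KO cells and at 6.43 ± 0.498 and 2.71 ± 0.63 FPKM in control cells (difference 1.15, adjusted p = 0.0414). The Hmox2 call ended without KO DMSO library 1 (adjusted p = 0.051) or KO DMSO library 2 (0.0552), and the calls of Gstm3 and Vma21 ended under 13 and 17 of the settings tried. The count of 3 became 0 without KO DMSO library 1 or 2, 1 without KO DMSO library 3, KO SR9009 library 1, control DMSO library 3 or control SR9009 library 2, and 5 without control DMSO library 1.

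Changes of the leading KO genes were set beside those in control cells. Fam84a changed by 4.44 in KO and 4.46 in control cells, a difference of -0.01 (95% interval -0.44 to 0.41). Cyp2b10 changed by 2.42 and 1.77, a difference of 0.65 (95% interval 0.43 to 0.87, adjusted p = 0.0991). Gadd45a changed by 1.66 and 1.88 (difference -0.21, 95% interval -0.45 to 0.03), and Hpgd by -1.56 and -1.52 (difference -0.03, 95% interval -0.29 to 0.22). For Irs2 the changes were -1.03 and -0.38 (difference -0.65, 95% interval -1.18 to -0.13, adjusted p = 0.628). An adjusted p above the threshold here does not show that the genotypes respond alike.

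**Figure D5:**
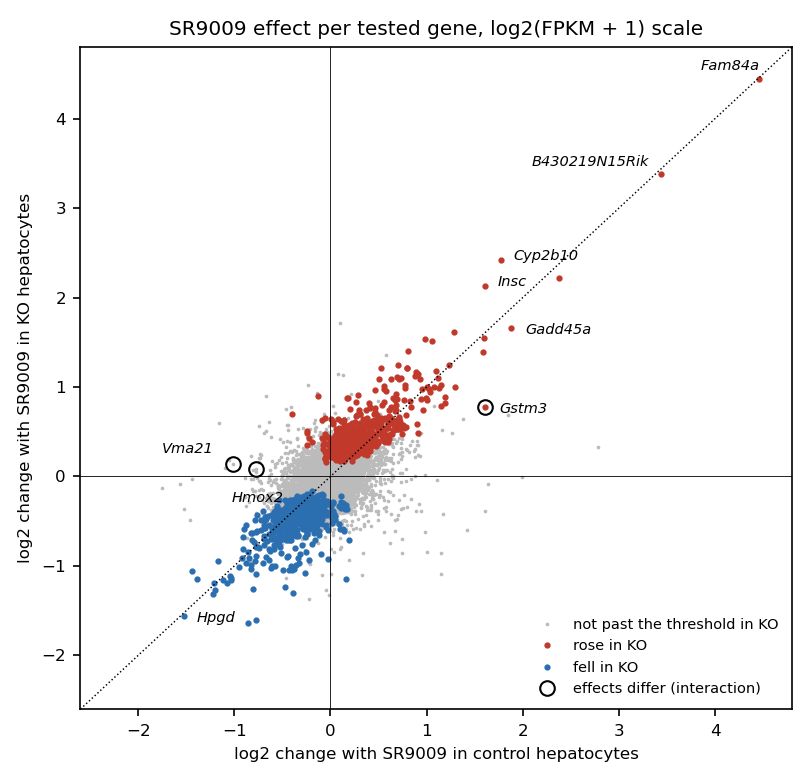
Change with SR9009 of each of the 11213 tested genes in control (x axis) and KO (y axis) hepatocytes on the log2(FPKM + 1) scale; red rose and blue fell in KO cells, and rings mark the 3 genes whose effects differed by the interaction test. The dotted line marks equal change, and Fam84a lies at its far end (4.46 and 4.44). Of the 1107 genes called in KO cells, 1053 have the same sign in control cells and 54 the opposite one. Their median size of change is 0.425 in KO and 0.305 in control cells, and they were chosen on the KO values.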

How the data were processed

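The submitters' processing notes name HISAT2, StringTie and build mm9, while the annotation, tool versions and use of strand were not given in the sources at hand. The authors deposited 1 table of values per gene and library whose header names no unit. The deposited numbers were read as FPKM, since library sums differed (538521 to 604449) and low values fell on steps. Whether these steps scale with gene length is not shown here, so the unit is assumed. Read totals are not part of the table, so no counting intervals are given.

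Genes that reached 1 FPKM in 3 or more libraries were tested on log2(FPKM + 1) in R 4.3.3 with limma 3.58.1 (trend and robust variance, a mean per group, all 12 libraries sharing 1 estimate of the spread). P-values were adjusted over 11213 genes at 0.05. Alternatives were other pseudocounts (0.1 and 5), filters, scalings, variance settings, a replicate block and each library left out. The fit was tested on simulated data. Tables and plots used Python 3.11.15, pandas 2.3.3 and matplotlib 3.10.9.

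Members and gene lists were chosen with earlier results of these data known. Lists are described by counts and medians, with no test of their own. Named genes are Nr1d1, Nr1d2, the 12 largest changes per direction with separated groups and at least 5 FPKM, interaction genes, up to 6 list members with the smallest p, and clock and REV-ERB target genes. The following were named after their values were seen: Thra, Hspa5, Xbp1, Pck1, Fbp1, Nr1i2, Nr1i3, Nr3c1, Nfe2l2, Mdm2, Rrn3, Nop2, Avpr1a, BC013529, B430219N15Rik, 5730403B10Rik and Cyp2c53-ps. A few items are not reported here. Promoters are RefSeq sequences of GRCm38.p6, searched for fixed letters. Of the list symbols, 10 were matched through older names (9630033F20Rik is Tigar) and Noc2l was not matched.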

Additional observations from a re-analysis of the deposited data

Results flagged for a closer look

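For 3 genes the change with SR9009 differed between KO and control cells by the interaction test of limma. Gstm3, a glutathione transferase, rose in both genotypes, with a smaller log2 change in KO cells (difference -0.83 on the log2 scale, adjusted p = 0.0307). Its rise in FPKM was larger in KO cells, which started from a higher level. Hmox2, the constitutive heme oxygenase, had a log2 change of 0.09 in KO cells (adjusted p = 0.482) and of -0.77 in control cells (difference 0.86, adjusted p = 0.00854). Vma21, a proton pump assembly factor, had a log2 change of 0.14 in KO cells (adjusted p = 0.51) and of -1.01 in control cells (difference 1.15, adjusted p = 0.0414). These are 3 of 11213 genes, and groups of 3 libraries were too small for a test of single outlying libraries.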

How the results depend on the processing

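The count of genes past the threshold in KO cells was 603 to 1438 when 1 library was left out (313 to 782 higher, 290 to 656 lower) and 820 to 1220 under the other settings, which include no filter on level and quantile normalization. The share of calls that were higher ran from 50.3% to 57.5%. In control cells the count was 376 when only the groups compared were fitted and 530 to 919 when 1 library was left out. The interaction count of 3 was 1 with no filter on level, 1 with quantile normalization, 1 without trend or robust variance and 0 to 5 when 1 library was left out; fitting only the groups compared gives no interaction value. Of the 189 passing genes that are named or listed, the setting that ended most calls was leaving out KO SR9009 library 1 (64 calls), and 0 changed sign under any setting. With a pseudocount of 5 the log2 changes of some low genes shrank by over 1.5 times and stayed past the threshold: Cyp2c53-ps 1.46, Slc13a5 0.99, Procr 0.90, Akr1b7 0.71, Derl3 -0.65, Irs2 -0.61, Ppp1r3c -0.59, Ppp1r3b -0.43, Ccnd3 -0.30 and Thra -0.24. Among genes that did not pass, Npas2 changed sign without KO DMSO library 2 (-0.059) and without KO SR9009 library 3 (-0.015), in a range of -0.059 to 0.103 over the left-out libraries. Pck1 changed sign without KO SR9009 library 1 (0.043), in a range of -0.132 to 0.043.

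The replicate numbers of the titles showed no clear pairing of the KO libraries. Deviations of same-numbered KO DMSO and KO SR9009 libraries correlated across genes with r of -0.0482, -0.00343 and 0.0496. For control SR9009 and KO DMSO libraries the same r was 0.122, 0.0647 and 0.0846, and every other pair of groups had both signs. Whether equal numbers mark a shared source cannot be told from values this small. With the replicate number as a block 958 genes passed in KO cells, 917 of them shared with the fit without it, and the interaction count was 0 (Hmox2, adjusted p = 0.0615). The block ended 18 of the 189 calls. The depth of the shallowest KO library, by a rough estimate 63.4% of the deepest, limits low genes most, and genes below 1 FPKM were not tested.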

Other observations

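A run of zinc finger gene models on mm9 chromosome 2, between 174954994 and 177813181, was noticed after the values were seen. It holds 28 tested models, kept by the form of their names, at low levels, none above a mean of 9.51 FPKM in KO DMSO cells. With SR9009 in KO cells 10 of the 28 rose and 0 fell, beside 5.32% and 4.56% of all tested genes. The median was 0.38 on the log2 scale beside 0.004 over all tested genes. In control cells 7 rose, beside 3.69% of all tested genes. The mean of Gm14308, which rose, went from 0.281 to 1.29 FPKM and so reached 1 FPKM in KO cells only with SR9009. Models that enter the test this way could favour rises in the count, and their part was not tested. Zfp931 stood at 3.58, 4.14 and 4.77 FPKM with DMSO and at 9.72, 10.4 and 9.65 FPKM with SR9009 (log2 1.09, limma adjusted p = 0.000464). Gm14420 went from 3.05 ± 0.505 to 8.33 ± 0.719 FPKM (log2 1.21, adjusted p = 1.72e-05) and Gm14399 from 2.2 ± 0.432 to 6.15 ± 0.343 FPKM (log2 1.17, adjusted p = 0.000961). In all 3 the treatments did not overlap. Such gene runs hold near-identical copies between which reads can be split, so the models are not independent and their single values are uncertain; the part of this sharing in the counts was not tested.

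The genes that rose and those that fell in KO cells had similar starting levels, with median KO DMSO levels of 17.9 FPKM for the 596 that rose and 17.0 FPKM for the 511 that fell, beside 9.11 FPKM for all tested genes.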
